A study of Mus musculus with 24 samples.

Results

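Liver-enriched transcription factors are the proteins whose joint binding keeps the gene program of the hepatocyte running. The set described here holds 9 of the 24411 genes counted in each library, chosen by symbol: *Hnf4a*, *Foxa1*, *Foxa2*, *Foxa3*, *Cebpa*, *Cebpb*, *Onecut1*, *Prox1* and *Nr5a2*. HNF4A is a nuclear receptor that binds a large share of hepatocyte promoters and enhancers. The FOXA proteins are pioneer factors that open compacted chromatin. C/EBPα and C/EBPβ are bZIP factors that act on metabolic and acute-phase genes, and C/EBPβ is known for its part in liver regeneration. ONECUT1 (HNF6) and PROX1 are homeodomain factors needed for liver development, and NR5A2 (LRH-1) is a nuclear receptor known for its control of bile acid and cholesterol genes.

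The study asked how livers poor in polyploid hepatocytes respond to acetaminophen (APAP), a drug whose overdose kills pericentral hepatocytes. *E2f7* and *E2f8* encode atypical E2F repressors, and livers that lose them early stay rich in diploid hepatocytes. Polyadenylated RNA from whole liver was sequenced in 24 libraries, from 14 single mice at 0 h and 10 pools of 3 mice each. Mice were males of about 2.5 months, fasted for about 16 h. The pools came from mice given 300 mg/kg APAP by intraperitoneal injection, and the 0 h livers are the untreated baseline.

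Liver knockouts (LKO), on a mixed and mainly FVB background, carried floxed *E2f7* and *E2f8* alleles, the R26R mTmG reporter and an Alb-Cre transgene, which is active from embryonic liver onwards in hepatocytes and in cells that share their origin. Their control littermates, named wild-type in the labels, lacked Cre. The 0 h livers of this cohort came from 4 control and 4 LKO mice, and 1 control and 1 LKO pool were made at each of 12, 24, 48, 72 and 96 h. Hepatocyte knockouts (HKO) were floxed mice given AAV8-TBG-Cre at 2 months of age, a virus whose TBG promoter restricts Cre to hepatocytes, and their controls received AAV8-TBG-Null. The HKO cohort had 3 mice per group at 0 h and none after APAP. No group carried Cre without the floxed alleles. Feeding after the injection and the hour of harvest are not stated, so time after APAP, refeeding and time of day cannot be told apart.

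Each library held 12665686 to 19499897 reads on genes (median 16500386), so that 3 reads corresponded to 0.154 to 0.237 CPM (the count of a gene scaled to a common library total), far below the level of every member. CPM here were scaled by 1 TMM normalization over all 24 libraries. The *E2f8* count covers the whole gene, including reads outside the deleted exons, and checks nothing about the deletion: at 0 h it was 14.8 to 26.4 CPM in HKO controls and 30.6 to 83.4 CPM in HKO livers, and 11.8 to 18.9 CPM in LKO controls and 18.0 to 34.1 CPM in LKO livers. Hepatocyte markers were abundant in every library, with *Alb* at 26350 CPM or more, and the 18 hepatocyte genes followed here summed to 89790 to 182500 CPM. In whole liver RNA, fewer hepatocytes and less of a transcript in each hepatocyte cannot be told apart.

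Compared per kilobase of exon, the 9 factors fell into a high, a middle and a low tier in the 14 livers at 0 h. *Cebpb* (249 ± 87.7 CPM per kb, SD, n = 14), *Hnf4a* (209 ± 43.8) and *Cebpa* (203 ± 31.2) formed the high tier, and neighbours within it lay within 1 SD of each other. *Foxa3* (37.4 ± 11.3) and *Foxa2* (18.6 ± 7.74) came next. *Foxa1* (10.7 ± 4.60) and *Nr5a2* (9.74 ± 1.51) were within 1 SD of each other, as were *Prox1* (5.2 ± 2.86) and *Onecut1* (3.22 ± 1.96) at the bottom. The *Prox1* value pools both cohorts, which did not overlap: it was 8.19 ± 1.29 CPM per kb in the 6 livers of the HKO cohort, over 1 SD above *Onecut1* (3.62 ± 2.31), and 2.96 ± 0.79 in the 8 of the LKO cohort, beside 2.92 ± 1.76 for *Onecut1*. Among the FOXA paralogs the order of means was *Foxa3*, *Foxa2*, *Foxa1* in both cohorts. In the HKO cohort *Foxa2* (21.0 ± 9.0) and *Foxa1* (12.8 ± 6.5) were within 1 SD of each other. The counts used ignore strand, and the antisense transcript *Hnf4aos* overlaps *Hnf4a* and the opposite-strand gene *Tmem189* overlaps *Cebpb*. Reads on bases shared by both genes of a pair are ambiguous and count for neither, so any such reads are missing from the levels of *Hnf4a* and *Cebpb*. Further annotated transcripts overlap *Cebpa*, *Onecut1* and *Prox1*, and no separate count of them was used here.

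On GRCm38 (mm10), the GENCODE annotation places *Hnf4a* at chr2:163506808-163572910 on the plus strand, *Foxa2* at chr2:148042877-148046969 on the minus strand and *Cebpb* at chr2:167688915-167690418 on the plus strand. *Foxa1* lies at chr12:57540628-57546916 (minus), *Foxa3* at chr7:19013284-19023538 (minus) and *Cebpa* at chr7:35119293-35121928 (plus). *Onecut1* lies at chr9:74861921-74891781 (plus), *Prox1* at chr1:190118035-190170714 (minus) and *Nr5a2* at chr1:136842571-136960448 (minus). The table of RefSeq starts used here (GRCm38.p6), which does not hold every annotated start, has 14 for the 9 genes, and the 250 bases before each were searched on both strands for letters that these factors are known to bind. Shown first are all matches to FOXA (TGTTTAC), ONECUT (ATCAAT) and C/EBP (TTGCNNAA), because they mark where letters read by 1 member stand before the start of another. Capitals mark the match, and each line runs 5′ to 3′ on the strand of its gene. Distances count from the start in the RefSeq table. For the distal *Hnf4a* start that base lies inside the annotated gene span, which begins at 163506808.

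Hnf4a, distal start, chr2:163506788-163506813 (+), ONECUT letters 59 bases before the start: gattagaagaATCAATaagataaccg

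Foxa1, chr12:57546236-57546262 (-), FOXA letters 141 bases before an internal start: atactgctttGTAAACAaagtgagggc

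Foxa2, chr2:148047167-148047192 (-), ONECUT letters 213 bases before the start: aaggcccattATTGATtttttttctc

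Nr5a2, chr1:136953856-136953880 (-), C/EBP letters 243 bases before an internal start: tgttttgTTTTGCAAagcttggtct

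FOXA letters stood in 1 of the 14 member windows and in 3.17% of all 32851 windows of this length. ONECUT letters stood in 2 of 14 (6.72% of all windows) and C/EBP letters in 1 of 14 (9.56%). The letters searched for HNF4 (CAAAGTCCA, 0.384% of all windows), NR5A2 (CAAGGTCA, 1.33%) and E2F (TTTCCCGC, TTTGGCGC, TTTCGCGC or TTTGCCGC, 1.86%) stood in 0 of 14. No match overlapped another. The windows of *Cebpa* and *Foxa3* are given whole because the one gene was lowest at 48 h in both genotypes and the other was lower in LKO than in control livers (below), and both hold TATAAA, 30 and 36 bases before the start. TATAAA stood anywhere in the window in 12.4% of all windows and in 5 of the 14 member windows. TATAAA was added to the search after the sequences had been read. The window of the *Hnf4a* start used in adult liver holds no match and is given for comparison.

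Cebpa, chr7:35119043-35119292 (+), 66.4% GC, TATAAA 30 bases before the start: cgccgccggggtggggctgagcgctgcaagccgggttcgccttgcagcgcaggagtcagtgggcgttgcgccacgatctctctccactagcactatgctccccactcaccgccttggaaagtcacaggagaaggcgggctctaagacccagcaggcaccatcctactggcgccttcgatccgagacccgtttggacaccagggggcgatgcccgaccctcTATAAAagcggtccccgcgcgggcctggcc

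Foxa3, chr7:19023540-19023789 (-), 68.8% GC, TATAAA 36 bases before the start: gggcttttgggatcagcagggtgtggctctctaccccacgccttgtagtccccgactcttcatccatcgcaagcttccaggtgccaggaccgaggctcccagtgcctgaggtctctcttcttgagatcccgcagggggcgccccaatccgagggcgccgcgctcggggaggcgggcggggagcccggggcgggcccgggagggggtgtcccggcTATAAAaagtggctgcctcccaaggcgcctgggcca

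Hnf4a, downstream start, chr2:163546905-163547154 (+), 57.6% GC, no match: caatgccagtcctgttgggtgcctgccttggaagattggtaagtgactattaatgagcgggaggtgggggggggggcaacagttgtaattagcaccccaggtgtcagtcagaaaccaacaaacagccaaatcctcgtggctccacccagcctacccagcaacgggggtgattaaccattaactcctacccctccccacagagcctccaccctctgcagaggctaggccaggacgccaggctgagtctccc

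A match is a string of letters and was not tested for binding, and the windows hold no enhancers.

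In HKO livers at 0 h, 6 of the 9 factors had estimates close to 0, and the 3 with larger estimates were *Foxa1*, *Foxa2* and *Onecut1*, all in the upward direction. None of the 9 passed the test (edgeR's quasi-likelihood test, Benjamini-Hochberg adjusted p below 0.05 and a fold of at least 1.5), beside 0.96% of 12397 genes. DESeq2 called 1 of them, *Foxa2*, and 327 genes in all, and 3 of the 9 and 1598 of the 12397 genes had an unadjusted p under 0.05. *Foxa2* was counted at 40.1, 33.0 and 23.4 CPM in the 3 controls and at 44.1, 79.6 and 55.0 CPM in the 3 HKO livers. Every HKO liver was above every control, a separation seen for 1 of the 9 members and for 18% of all genes tested. Its log2 fold change was 0.89 (SE 0.24, 95% interval 0.35 to 1.43, adjusted p = 0.136), against an adjusted p of 0.00877 with DESeq2.

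*Foxa1* was at 23.6, 33.4 and 32.3 CPM in controls and at 24.9, 76.5 and 54.2 CPM in HKO livers, where replicate 1 lay within the control range. The log2 fold change of *Foxa1* was 0.81 (SE 0.33, adjusted p = 0.354). *Onecut1* was at 8.59, 14.2 and 4.42 CPM in controls and at 10.7, 30.6 and 17.5 CPM in HKO livers (log2 fold change 1.12, SE 0.44, adjusted p = 0.333). In all 3 genes HKO replicate 1 was the lowest of its group. Without that liver, the lowest of its group in these genes, *Foxa1* (1.14, adjusted p = 0.0133) and *Foxa2* (1.07, adjusted p = 0.0357) passed the test. Over all genes, 297 of 12613 were called without it, against 119 with it. The same liver had the highest summed level of 5 neutrophil genes in its cohort (7.45 CPM, against at most 1.40 CPM in the other 5) and the lowest of 6 stellate cell genes (110.0 CPM, against 125 to 249.6 CPM). Summed lymphocyte genes were 9.48 to 12.7 CPM in HKO livers and 5.30 to 7.31 CPM in controls. Their part in these values was not tested.

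The remaining 6 members had estimates closer to 0 in HKO livers. *Nr5a2* had the narrowest interval, at 57.4, 61.3 and 58.7 CPM in controls and 56.6, 53.5 and 70.7 CPM in HKO livers, with a log2 fold change of 0.03 and a 95% interval of -0.24 to 0.30. *Hnf4a* was at 931 to 1055 CPM in controls and 704 to 1308 CPM in HKO livers (-0.01, interval -0.45 to 0.43), so the spread was wider in HKO livers while the means were alike. Estimates for *Cebpa* (0.07), *Prox1* (0.07), *Cebpb* (-0.08) and *Foxa3* (-0.19) were also within the spread between mice. Their 95% intervals together ran from -0.70 to 0.51 on the log2 scale.

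In LKO livers at 0 h the member that stood apart was *Foxa3*, which was lower than in every control. It was counted at 70.8, 106, 99.1 and 89.2 CPM in the 4 controls and at 60.8, 47.4, 41.6 and 53.4 CPM in the 4 LKO livers. The means were 91.3 ± 15.4 and 50.8 ± 8.21 CPM (SD, n = 4 each). Of the 9 members 1 was separated in this way, beside 1.75% of the genes tested. The log2 fold change was -0.84 (SE 0.16, 95% interval -1.20 to -0.48), with the third lowest p of 12426 genes but an adjusted p of 0.999 in edgeR. DESeq2 gave -0.85 with an adjusted p of 0.0173. In edgeR 0% of genes and 0 of the 9 members were called in this comparison, with 352 genes and 1 member at an unadjusted p under 0.05, and DESeq2 called 3 genes, *Foxa3* among them.

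**Figure D1:**
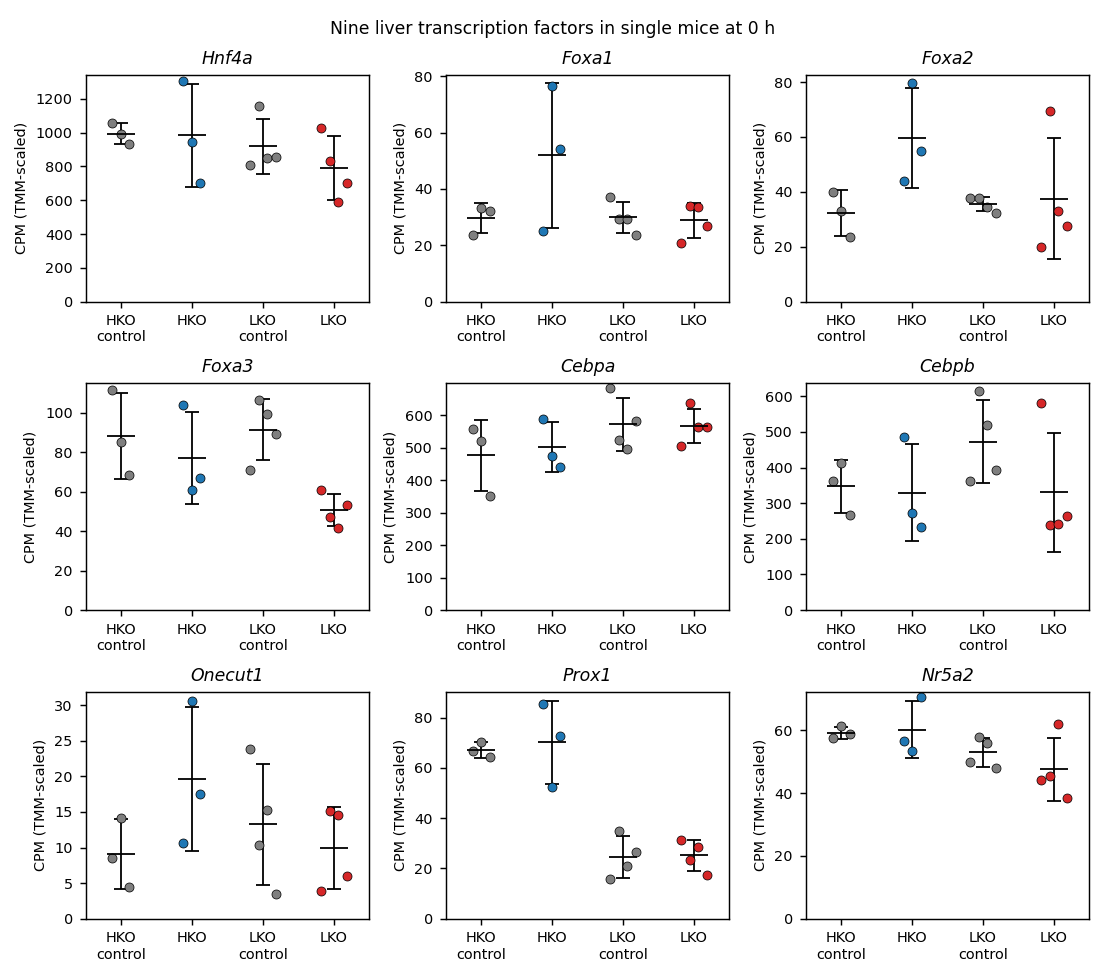
Level of each factor in CPM (linear axis) in each of the 14 livers at 0 h, 1 panel per gene, with 1 point per mouse and bars for the group mean ± SD. Foxa3 lay at 41.6 to 60.8 CPM in the 4 LKO livers and at 70.8 to 106 CPM in their 4 controls, and Prox1 lay higher in all 6 livers of the HKO cohort than in the 8 of the LKO cohort.

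*Cebpb* had the next largest estimate in LKO livers (-0.51, SE 0.30, adjusted p = 0.999). It was at 362, 614, 519.5 and 394 CPM in controls, and 3 of the 4 LKO livers, at 238, 241 and 265 CPM, were below all of them. The fourth, LKO replicate 1, was at 580.3 CPM. That liver also held the highest summed level of 9 macrophage genes at 0 h (445 CPM, against 177 to 279 CPM in the other 7 of its cohort) and the lowest *Foxa1* (20.7 CPM), *Foxa2* (20.0 CPM) and, among LKO livers, *Onecut1* (3.93 CPM). Whether these go together was not tested. Estimates for the other 7 members were between -0.41 and 0.09 on the log2 scale, and all their 95% intervals held 0.

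The estimates for *Foxa1*, *Foxa2* and *Onecut1* were larger in HKO livers (0.81, 0.89 and 1.12) than in LKO livers (-0.05, 0.09 and -0.41), but a test of the difference called none of the 9 members and 0% of 12945 genes. An unadjusted p under 0.05 was reached by 1 member and 579 genes, and DESeq2 called 0 members and 21 genes. The LKO effect minus the HKO effect was -0.65 for *Foxa3* (SE 0.30, 95% interval -1.28 to -0.02, adjusted p = 1), -0.85 for *Foxa1* (interval -1.73 to 0.02) and -1.53 for *Onecut1* (interval -3.29 to 0.24).

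**Figure D2:**
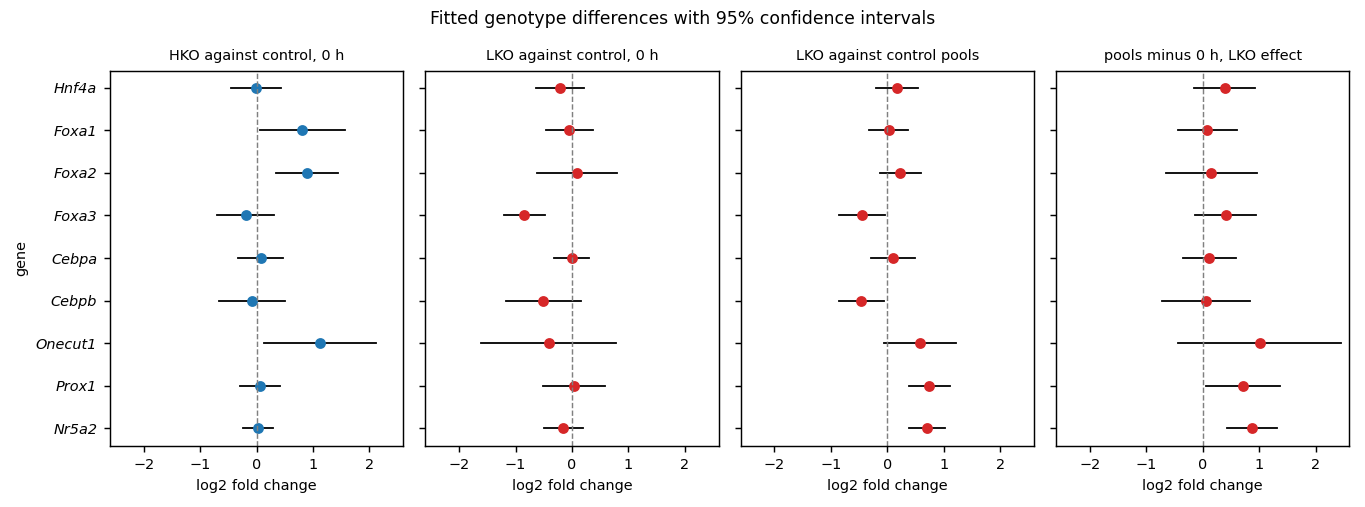
Log2 fold change of each factor with its 95% interval from the quasi-likelihood fit, for HKO against control and LKO against control at 0 h, LKO against control pools at 12 to 96 h, and LKO minus control change after APAP. The intervals of Foxa2 in HKO livers (0.89), Foxa3 in LKO livers at 0 h (-0.84), Prox1 (0.74) and Nr5a2 (0.70) in LKO pools and the LKO minus control change of Nr5a2 (0.87) are among those that lie apart from 0.

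A larger separation than any between genotypes at 0 h was seen between cohorts for *Prox1*. Its level was 52.5 to 85.4 CPM (median 68.6) in the 6 livers of the HKO cohort and 15.8 to 34.95 CPM (median 24.9) in the 8 livers of the LKO cohort. *Prox1* was the one member whose cohort ranges did not overlap, beside 9.12% of genes. *Cyp8b1*, the sterol 12α-hydroxylase of bile acid synthesis, was at 1006 to 1309 CPM in the HKO cohort and at 125 to 435 CPM in the LKO cohort. The gap was present in the controls, none of which held Cre. *Prox1* was at 64.2 to 70.5 CPM in HKO controls and 15.8 to 34.95 CPM in LKO controls. *Cyp8b1* was at 1010 to 1309 CPM and 125 to 435 CPM in these groups. The cohorts differ in the virus and, among knockouts, in how Cre was delivered. Their libraries also differed in the share of reads on no annotated feature (12.6% to 14.7%, against 8.47% to 10.8%). The part of these in the levels was not tested, and the levels are given without a test.

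At 12 h after APAP *Prox1* rose while edgeR called none of the other 8 (DESeq2 also called *Nr5a2*, lower), at 24 and 48 h *Hnf4a* and *Cebpa* fell, joined by *Nr5a2* at 24 h and *Foxa1* at 48 h, and at 72 h *Hnf4a* and *Foxa1* were still lower. By 96 h no member differed from 0 h by the test. Of the 9 members 1, 3, 3, 2 and 0 were called at 12, 24, 48, 72 and 96 h, beside 31%, 25.6%, 16.4%, 16.8% and 0.462% of 13855 genes. At 96 h 1 member had an unadjusted p under 0.05, of 2140 genes, and DESeq2 called 0 members. Both pools lay outside the range of the 8 livers at 0 h for 3, 2, 3, 5 and 0 members, beside 35.3%, 36.9%, 24.2%, 27.2% and 14.2% of genes. The members' share was below the background at 12 and 96 h by both measures and above it at 48 and 72 h. At 24 h it was above the background for calls and below it for the range. In a set so small 1 gene is a large step, and no pattern over time is read from these shares.

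**Figure D3:**
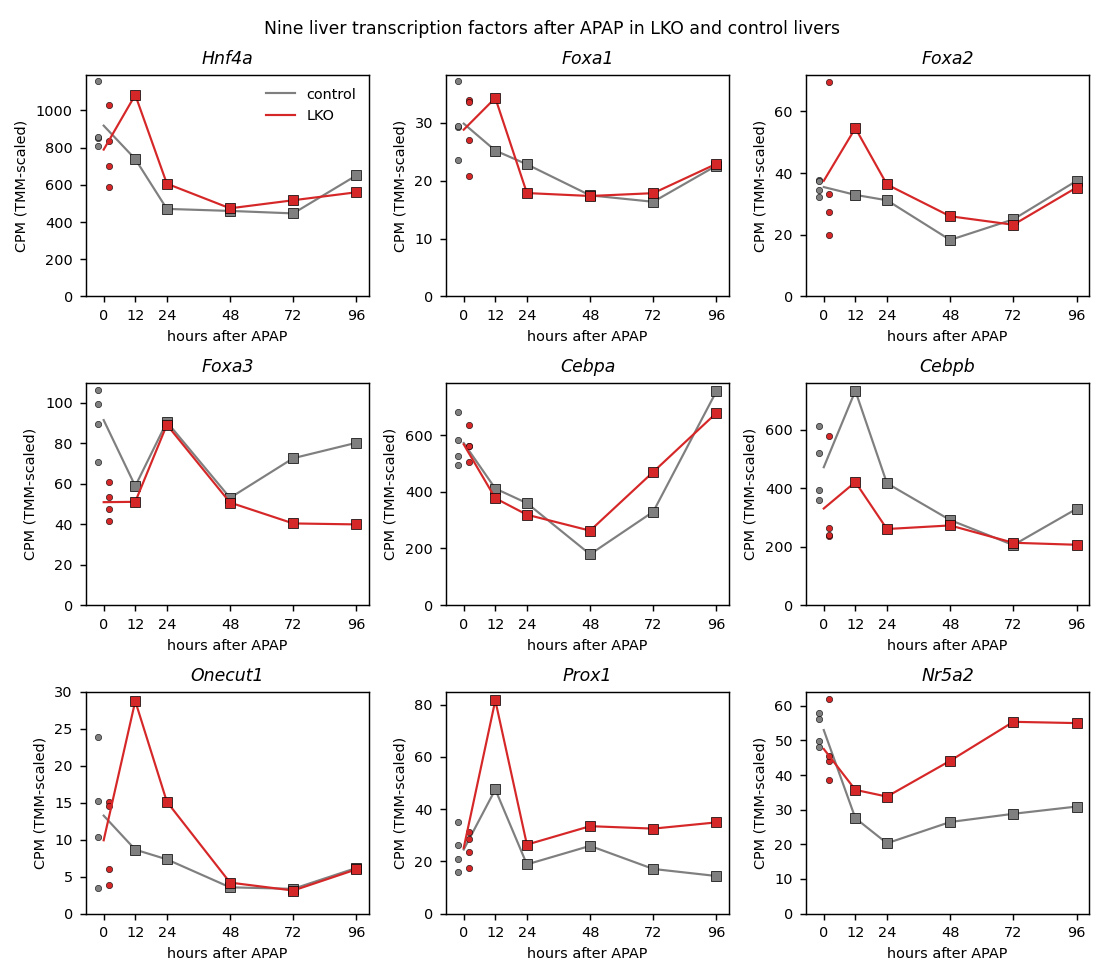
Level of each factor in CPM against hours after APAP in the LKO cohort, with dots for the 8 single livers at 0 h and squares joined by lines for the pools of 3 mice, by genotype. Cebpa reached its lowest level at 48 h in both genotypes (179 CPM in control, 263 CPM in LKO) and exceeded its 0 h median at 96 h, and Nr5a2 lay higher in the LKO pool at each time.

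*Hnf4a* ranged from 590.4 to 1157 CPM (median 842) in the 8 livers at 0 h. The control pools held 738, 471, 459.7, 446 and 650.3 CPM at 12 to 96 h, and the LKO pools 1083, 606, 474, 517 and 559.9 CPM. Both pools were below the whole 0 h range at 48 and 72 h, and at 12 h neither was. The change passed the test at 24 h (-0.67, SE 0.23, adjusted p = 0.0407), 48 h (-0.88, SE 0.24, adjusted p = 0.0181) and 72 h (-0.83, SE 0.24, adjusted p = 0.0218), and was -0.52 at 96 h (adjusted p = 0.295).

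Of the FOXA genes *Foxa1* passed the test after APAP, and *Foxa2* and *Foxa3* did not. *Foxa1* was at 20.7 to 37.3 CPM (median 29.3) at 0 h. Its control pools held 25.2, 22.8, 17.5, 16.4 and 22.6 CPM and its LKO pools 34.3, 17.9, 17.4, 17.85 and 22.9 CPM. Both genotypes were below the 0 h range at 48 and 72 h, where the change was -0.76 (SE 0.21, adjusted p = 0.0215) and -0.78 (SE 0.21, adjusted p = 0.0172). *Foxa2* was at 20.0 to 69.4 CPM (median 33.8) at 0 h, and its pools ran from 18.3 CPM (control, 48 h) to 54.6 CPM (LKO, 12 h). Its change at 48 h was similar in size to that of *Foxa1* (-0.74) but with a larger error (SE 0.33, adjusted p = 0.127), since the livers at 0 h were more scattered. *Foxa3* was called at no time, with estimates between -0.38 and 0.41, the highest at 24 h, when the pools held 90.4 and 89.0 CPM.

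*Cebpa* showed the deepest fall among the abundant factors. At 0 h it was at 496 to 683 CPM (median 563). The control pools held 411.5, 359.9, 179, 329.7 and 755 CPM, and the LKO pools 377, 319, 263, 470.3 and 679 CPM. At 48 h the pools held 31.3% (control) and 46.3% (LKO) of the 0 h mean, and by 96 h this had become 132% and 120%. Both pools were below the 0 h range at 12, 24, 48 and 72 h. The change was -0.50 at 12 h (SE 0.19, adjusted p = 0.0505), -0.75 at 24 h (SE 0.19, adjusted p = 0.0083), -1.38 at 48 h (SE 0.20, adjusted p = 0.000225) and -0.52 at 72 h (SE 0.19, adjusted p = 0.0646).

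*Cebpb* took another course. From 238 to 614 CPM (median 378) at 0 h, its control pools held 734, 417, 291, 205 and 329.6 CPM and its LKO pools 421.5, 260.5, 273, 213 and 206.5 CPM. The control pool at 12 h was above every liver at 0 h and the LKO pool was not, and at 72 h both pools were below all of them. No time passed the test: the estimates were 0.53 at 12 h (SE 0.29, adjusted p = 0.162) and -0.90 at 72 h (SE 0.32, adjusted p = 0.0595), the latter with an adjusted p of 0.0225 in DESeq2.

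*Onecut1*, the least abundant member, varied most. It was at 3.51 to 23.8 CPM (median 12.4) at 0 h, a range too wide for most changes to pass a test. Its control pools held 8.64, 7.33, 3.54, 3.34 and 6.16 CPM and its LKO pools 28.7, 15.1, 4.18, 3.11 and 5.98 CPM. At 72 h both pools were below the 0 h range and the change was -1.86 (SE 0.67, adjusted p = 0.0626), with an adjusted p of 0.0357 in DESeq2. At 12 h the LKO pool held 3.33 times the control pool, and from 48 h on the ratio was between 0.932 and 1.18.

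*Prox1* was the member that rose. It was at 15.8 to 34.95 CPM (median 24.9) at 0 h and at 12 h it reached 47.55 CPM in the control pool and 81.7 CPM in the LKO pool, both above the 0 h range. The 12 h change was 1.36 on the log2 scale (SE 0.27, 2.56-fold, adjusted p = 0.0011). Reads on no annotated feature made up 13.58% of the control pool and 10.95% of the LKO pool at 12 h. In the 8 livers at 0 h they made up 8.47% to 10.75%, and their part in the *Prox1* change was not tested. At later times the control pools held 18.8, 25.9, 17.1 and 14.4 CPM and the LKO pools 26.4, 33.5, 32.5 and 34.9 CPM, and estimates were between -0.17 and 0.23.

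*Nr5a2* was at 38.5 to 62.0 CPM (median 49.0) at 0 h. The control pools held 27.5, 20.3, 26.4, 28.8 and 30.9 CPM, all below that range, and the LKO pools 35.7, 33.8, 44.1, 55.4 and 55.0 CPM, of which the first pair was below it. Over both genotypes the change was -0.67 at 12 h (SE 0.26, adjusted p = 0.0528, and 0.0362 with DESeq2) and -0.95 at 24 h (SE 0.26, adjusted p = 0.0127).

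**Figure D4:**
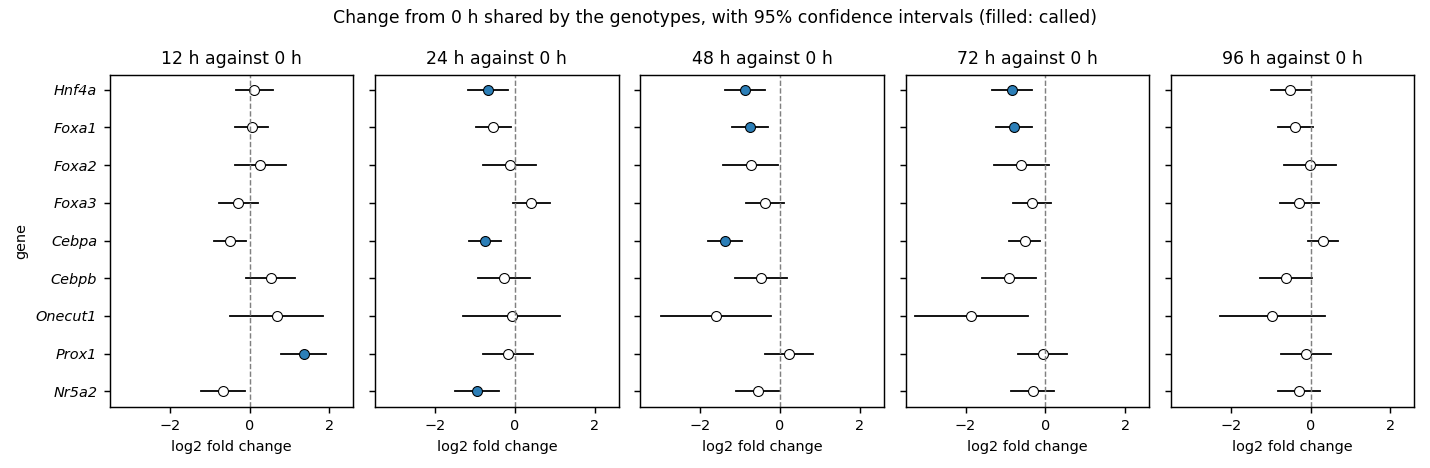
Log2 change of each factor from 0 h at 12, 24, 48, 72 and 96 h over both genotypes, with 95% intervals from the quasi-likelihood fit and filled points where the change was called. Prox1 at 12 h (1.36) is the one filled point above 0, and Cebpa at 48 h (-1.38) is the lowest filled point.

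Each time rests on 2 pools, and a call at 24, 48 or 72 h was lost when either pool of that time was left out, except that of *Cebpa* at 48 h, which like *Prox1* at 12 h was called under all 23 alternatives. That of *Hnf4a* at 24 h held in 14 of 23. With library size alone as the scaling, the median change of all genes moved to 0.14 at 24 h and 0.20 at 48 h, and the calls of *Hnf4a* at 24 h (-0.53, adjusted p = 0.0927) and *Foxa1* at 48 h (-0.56, adjusted p = 0.0853) were lost.

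Between LKO and control pools, compared over the 5 times with time as a block, *Nr5a2* and *Prox1* were higher in the LKO pool at 5 of 5 times and *Foxa3* was lower at 5 of 5. These 3 of 9 members kept 1 direction throughout, beside 16.6% of 13659 genes. The LKO pool held 1.30 to 1.92 times the *Nr5a2* level and 1.29 to 2.43 times the *Prox1* level of the control pool of its time. None of the 9 members was called by edgeR, beside 0.512% of genes, while 4 of them and 2377 genes had an unadjusted p under 0.05, and DESeq2 called 2 of them, *Nr5a2* and *Prox1*, and 608 genes. The estimate for *Nr5a2* was 0.70 (SE 0.14, 95% interval 0.39 to 1.02, adjusted p = 0.0616) and for *Prox1* 0.74 (SE 0.16, adjusted p = 0.0711). DESeq2 gave adjusted p of 0.00471 and 0.00779, and the adjusted p without the time block was 0.764 for both. The difference for *Foxa3* was small at 12 to 48 h (ratios 0.868, 0.985 and 0.956) and larger at 72 h (0.556) and 96 h (0.497), with an estimate of -0.45 (SE 0.18, adjusted p = 0.245). *Cebpb* was lower in the LKO pool at 4 of 5 times (-0.46, SE 0.18, adjusted p = 0.23).

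Whether the change from 0 h to the later times differed between genotypes was tested with all 18 libraries of the LKO cohort. In edgeR 0 of the 9 members and 0% of genes were called, with 2 members and 1307 genes at an unadjusted p under 0.05, and DESeq2 called 1 member, *Nr5a2*, and 39 genes. *Nr5a2* fell to 38.3% to 58.3% of the 0 h mean in control pools and held 71.1% to 117% in LKO pools. The difference of the changes was 0.87 on the log2 scale (SE 0.21, 95% interval 0.43 to 1.31, adjusted p = 0.377, and 0.0433 with DESeq2). For *Prox1* it was 0.71 (SE 0.31, adjusted p = 0.494) and for *Onecut1* 1.01 (SE 0.68, adjusted p = 0.648).

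Genes known as targets of these factors were followed beside them. Of all genes tested, 16.7%, 13.9%, 9.89%, 11% and 0.332% rose and 14.3%, 11.7%, 6.52%, 5.77% and 0.13% fell at 12, 24, 48, 72 and 96 h, and the counts of each list stand beside these shares. Of 6 NR5A2 targets, all in bile acid or cholesterol handling, none rose, and 3, 5, 3, 2 and 0 fell from 12 to 96 h in turn. Their median change was -1.62, -1.76, -0.98, -0.79 and -0.49 in that order, against medians of all genes between -0.03 and 0. The largest falls were *Nr0b2*, the small heterodimer partner, at 12 h (-3.35, SE 0.50, adjusted p = 0.000135), *Cyp7a1*, the rate-limiting enzyme of bile acid synthesis, at 24 h (-2.65, SE 0.90, adjusted p = 0.0362) and *Abcg8*, a sterol exporter, at 24 h (-2.36, SE 0.38, adjusted p = 0.000415). The summed level of the 6 targets was higher in the LKO pool at 5 of 5 times, at 564, 363, 358, 528 and 728 CPM in control and 712, 411, 798, 929.6 and 946 CPM in LKO, after 924 to 1258 CPM at 0 h. This order rests in part on *Cyp8b1*: the other 5 targets summed to 366 and 352 CPM at 12 h (control and LKO, lower in LKO), 301 and 302 CPM at 24 h and 589 and 604.5 CPM at 96 h, and were farther apart at 48 h (261.5 and 616 CPM) and 72 h (454 and 704 CPM). *Cyp8b1* was called between the pools (1.07, SE 0.17, adjusted p = 0.0343), at 198, 62.4, 97.0, 73.8 and 139 CPM in control and 360.4, 108, 182, 225.5 and 342 CPM in LKO.

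**Figure D5:**
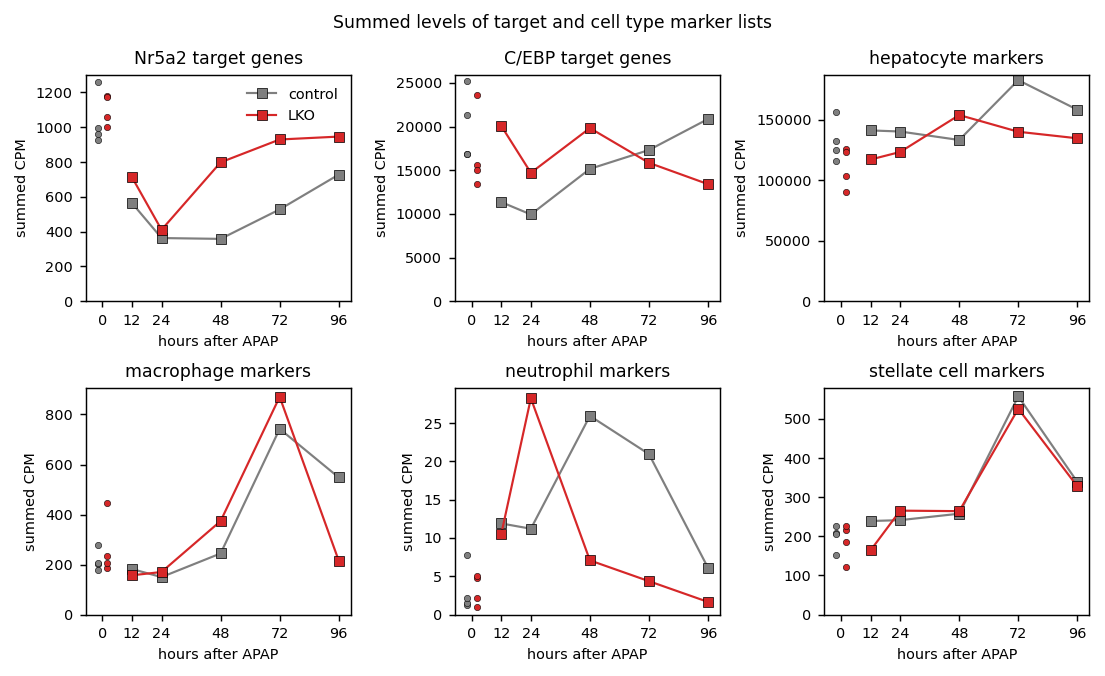
Summed CPM of NR5A2 targets, C/EBP targets and markers of hepatocytes, macrophages, neutrophils and stellate cells against hours after APAP in the LKO cohort, dots for single livers at 0 h and squares for pools. The NR5A2 target sum, of which Cyp8b1 is a large part, was lowest at 24 h in LKO (411 CPM) and at 48 h in control (358 CPM), and macrophage markers were highest at 72 h (742.5 CPM in control, 871 CPM in LKO).

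Targets of the other factors moved in both directions. Of 16 HNF4A targets, 2 rose and 5 fell at 12 h, 2 and 6 at 24 h, 2 and 5 at 48 h, 1 and 1 at 72 h and none at 96 h. *Apoa4*, an apolipoprotein, rose at the first 4 times (4.69, 5.59, 5.85 and 4.60), and *Abcc6*, a transporter needed to hold back calcification, fell at the same times (-1.45, -2.50, -1.56 and -1.37). Of 12 C/EBP targets, 2 rose and 4 fell at 12 h, 1 and 4 at 24 h, 3 and 3 at 48 h and 2 and 2 at 72 h. *Lcn2*, which encodes an iron-sequestering acute-phase protein, rose by 4.21 to 5.15, while *G6pc*, the last enzyme of gluconeogenesis, fell by 1.71, 3.16, 1.71 and 1.82 and was higher in LKO than in control pools (1.32, adjusted p = 0.0454). Of 7 FOXA targets 1 rose and 3 fell at 12 h, and 3, 2 and 2 fell at 24, 48 and 72 h. Between LKO and control pools 1 of the 16 HNF4A targets was called, *Cyp8b1*, upward, and their median difference was 0.02, while their summed level was lower in the LKO pool at 5 of 5 times (23300 to 30350 CPM, against 29720 to 41710 CPM in control). The FOXA target sum was higher in the LKO pool at 1 of 5 times and the C/EBP target sum at 3 of 5. The median difference was 0.37 over the FOXA targets and 0.34 over the C/EBP targets. *Alb*, with a median of 58470 CPM over all libraries, is a large part of the FOXA sum. Several genes, *G6pc*, *Pck1*, *Cyp7a1* and *Cyp8b1* among them, stand in more than 1 of these lists. In HKO livers and in LKO livers at 0 h no gene of these target lists was called.

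Of 27 other liver transcription factors, 4 rose and 4 fell at 12 h, 2 rose and 3 fell at 24 h, and 5 and 6 fell with none rising at 48 and 72 h. Of all genes 31%, 25.6%, 16.4% and 16.8% were called at these times in either direction, and the list was not tested against them. At 12 h the largest changes were those of *Nr0b2* (-3.35) and *Klf15* (-2.30). *Klf15*, a factor of the fasting response, fell at later times too (-2.08, -1.47 and -1.14 at 24, 48 and 72 h), as did *Zhx2*, a postnatal repressor of fetal liver genes (-1.19, -1.08 and -0.77). *Cebpd*, a bZIP factor of the acute phase, rose at 12 h (1.28, SE 0.22, adjusted p = 0.000349) and 24 h (0.86), and *Gata6* at 12 h (1.11). The median of the 27 at 48 h was -0.41, against -0.74 over the 9 members. In HKO livers 1 of the 27 was called, *Gata4* (0.74, adjusted p = 0.0497), at 11.4 to 12.9 CPM in controls and 17.3 to 22.4 CPM in HKO livers.

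Markers of other cells moved in the same pools, in both directions. Of 9 macrophage genes 1 rose and 1 fell at 12 h, and at 24 h 2 rose and 3 fell, with *Cd68* (2.01) and the monocyte receptor *Ccr2* (1.94) up and *Adgre1* (-1.30) and the Kupffer cell lectin *Clec4f* (-1.28) down. From 48 h on 3, 4 and 2 of them rose and none fell, led at 72 h by *Ccr2* (3.64), *Lyz2* (3.61) and *Cd68* (2.75), and their sum was 742.5 and 871 CPM at 72 h, after 177 to 445 CPM at 0 h. Of 7 endothelial genes 2, 4, 2, 3 and 0 fell from 12 to 96 h in turn, and at 24 h *Stab2* fell by 1.51, *Flt4* by 1.04 and *Kdr* by 0.75. Of these 7 genes 1, *Lyve1*, rose at each of the first 3 times (1.42 and 1.12 at 12 and 24 h). Their sum was 166 to 229 CPM in the pools, after 214.5 to 286 CPM at 0 h. Of 6 stellate cell genes 2 fell at 12 h, 1 rose and 1 fell at 24 h, 2 rose at 48 h and 5 at 72 h, and their sum was 558 and 526 CPM, after 121 to 227 CPM. The cholangiocyte and progenitor gene *Sox9* rose at 12 h (3.57), 24 h (1.94) and 48 h (1.63). Of the 5 cholangiocyte genes tested it was the 1 called at 12 and 24 h, at 48 h *Spp1* rose as well (1.48) and *Krt19* fell, and at 72 h *Epcam* fell. Of 5 lymphocyte genes 1 rose at 72 h. Of 5 neutrophil genes counted in the files 3, 4, 3, 1 and 0 rose at 12 to 96 h, with sums of 0.98 to 7.76 CPM at 0 h and 1.65 to 28.2 CPM in the pools. Of 18 hepatocyte genes 4 rose and 3 fell at 12 h, 2 rose and 5 fell at 24 h, 1 fell at 48 h and 1 rose at 72 h, and their sum was 117000 to 182500 CPM in the pools and 89790 to 156100 CPM at 0 h. Marker sums also differed between the pools of a time. The cholangiocyte sum was higher in the LKO pool at 0 of 5 times. It was 168 CPM in control and 36.1 CPM in LKO at 12 h, 216 and 87.1 CPM at 48 h, and 21.9 CPM in both at 96 h. The LKO sum was the higher at 1 of 5 times for hepatocyte and neutrophil genes and at 2 for stellate cell genes. It was the higher at 3 for macrophage and endothelial genes and at 4 for lymphocyte genes. The part of these cells in the levels of the members was not tested. The cholangiocyte marker *Cftr* was at 0 in 8 of 24 libraries, and the neutrophil genes *Mmp8* and *Cxcr2* in 6 and 5.

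Over the 18 libraries of the LKO cohort the members differed in how much they varied, from *Foxa1* (SD 0.39 on the log2 scale) to *Onecut1* (1.02). The genes whose profile lay closest, by root mean square difference of centred log2 CPM over 13855 genes, were *Bsdc1* (0.15), *Bag6* (0.17) and *Letm1* (0.17) for *Hnf4a*, *Stim1* (0.21), *Pi4kb* (0.22) and *Hadha* (0.23) for *Foxa1*, and *Hadha* (0.32), *Foxa1* (0.32) and *Pex10* (0.33) for *Foxa2*. For *Foxa3* they were *Arpc5l*, *Sra1* and *Rnf113a2* (0.29 to 0.30). *Angptl6* (0.20), *Aspdh* (0.24) and *Slc27a5* (0.24), a bile acid-conjugating enzyme, lay closest to *Cebpa*, and *Rhobtb1* (0.29), *Shb* (0.30) and *Tnfrsf1b* (0.32) to *Cebpb*. Closest to *Prox1* were *Cntrl*, *Pura* and *Rreb1* (0.30 to 0.31), and closest to *Nr5a2* *Lgr4* (0.17), *Tnrc6b* (0.18) and *Ireb2* (0.18). For *Onecut1*, the member with the widest swings, *Alas1*, *Zyg11a* and *Ppp1r10* were closest, at 0.67 to 0.69. Among the members themselves *Foxa1* and *Foxa2* were the closest pair (0.32, Pearson r = 0.71 over the 18 libraries), then *Hnf4a* and *Foxa1* (0.34, r = 0.66). By r alone, which ignores how far a gene moves, *Onecut1* was closest to *Foxa1* (0.80) and *Foxa2* (0.77), both higher than r between *Foxa1* and *Foxa2*. The libraries share genotype and time, so these values describe likeness of profile in this series alone. With Pearson's r as the measure, 9 of the 27 closest genes were the same.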

How the data were processed

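RNA from whole liver was sequenced by the authors, who trimmed the reads, aligned them with STAR to mm10 and deposited the gene counts of each library as STAR writes them (the annotation is not given in the sources used here). Of the deposited counts, the unstranded column was used, since both stranded columns were alike (ratio 1.00 to 1.03). The 4 summary lines of each file (unmapped, multimapping, no feature, ambiguous) entered no test. Of the reads, 1.51% to 2.00% were ambiguous between genes.

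Genes passing filterByExpr were tested in R 4.3.3 with edgeR 4.0.16 (TMM, quasi-likelihood F-test, Benjamini-Hochberg adjustment over all genes tested, called at adjusted p below 0.05 and a fold of at least 1.5). HKO and LKO mice were compared with their controls at 0 h, pools between genotypes with time as a block, and each time with 0 h in a fit of 18 libraries with a genotype term. Log2 CPM used a prior count of 2. CPM per kb used the union of exons in GENCODE vM21. Folds with 1 pool per genotype and time have no replicate of their own. Alternatives were DESeq2 1.42.0, RLE factors or library size as scaling, no filter, no limit on the fold, a replicate block, no time block, and leaving out each library or time point. The scripts were tested on simulated data.

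The members, gene lists and tests were chosen with earlier results of these data known. Named from each list are genes among the up to 4 called with the largest changes in a comparison, not all of them, and for each member the 3 genes closest in profile. Same-numbered mice were not paired by the labels, and their deviations did not correlate in every pair (r from -0.38 to 0.22). Protein sequences and coverage along genes were not used here.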

Additional observations from a re-analysis of the deposited data

Results flagged for a closer look

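Of 18 groups of 4 livers examined (9 genes in 2 groups), 2 held a liver whose distance from the others exceeded Dixon's 95% critical value, a rule that by chance alone marks about 5% of groups. *Hnf4a* in LKO control replicate 2 was at 1157 CPM, against 808 to 855 CPM in the other 3 controls (ratio 0.866). *Cebpb* in LKO replicate 1 was at 580.3 CPM, against 238 to 265 CPM in the other 3 LKO livers (ratio 0.920). Over 14 alternatives, the difference of *Cebpb* between LKO and control livers at 0 h was -0.93 to -0.37 on the log2 scale (adjusted p from 0.817 to 1).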

How the results depend on the processing

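For the 30 member estimates with an unadjusted p under 0.05, the alternatives gave 597 values, of which 549 kept their direction and their side of the threshold, 26 gained a call, 22 lost one and 0 changed direction. Over all 90 estimates, 73 of 1755 values had the opposite sign. They came from 27 estimates between -0.41 and 0.68, of which 0 were called, such as *Onecut1* at 24 h (4 of 23 alternatives) and *Hnf4a* in HKO livers (4 of 12). DESeq2 called 1 member in HKO livers, 1 in LKO livers at 0 h, 2 in the pools, 2 at 12 h, 4 at 72 h and 1 for the difference of changes. Without a filter on low counts 1 was called in HKO livers, 2 in the pools, 2 at 12 h and, down from 3, 2 at 24 h. With 1 library left out, the members called ranged from 0 to 2 in HKO livers (2 without replicate 1), 1 to 3 at 12 h (3 without LKO replicate 1), 0 to 3 at 24 h, 1 to 4 at 48 h (4 without LKO replicate 1, *Foxa2* being added) and 0 to 3 at 72 h. The lowest counts at 24, 48 and 72 h came without either pool of that time, where the remaining pool was assumed to vary like the other groups. The cause was not tested.

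Over all genes, calls in HKO livers went from 119 to 327 with DESeq2, 255 without a filter, 263 with the replicate block and 54 to 297 without a replicate. In LKO livers at 0 h they went from 0 to 3 with DESeq2 and 0 to 1 without a replicate. In the pools they went from 70 to 608 with DESeq2, 45 with library size scaling, 337 without a filter, 0 without the time block and 8 to 172 without both pools of a time. Without a library they were 2151 to 4487 at 12 h, 1177 to 3720 at 24 h, 507 to 2507 at 48 h and 514 to 2532 at 72 h. At 96 h they went from 64 to 331 with DESeq2, 41 with library size scaling and 7 to 113 without a library. For the difference of changes they went from 0 to 39 with DESeq2, 2 without a filter and 0 to 3 without a library, and for LKO minus HKO from 0 to 21, 2 and 0 to 3. The replicate block, whose numbers do not pair the mice, called 0 members in HKO and 0 in LKO livers at 0 h. Library size scaling moved the median of all genes to 0.13 in LKO livers at 0 h.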
